A study of Saccharomyces cerevisiae with 4 samples.

Results

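The genes described here encode the cell wall integrity cascade of budding yeast, from the sensors in the plasma membrane to the kinases. They are 9 genes, picked by gene symbol in the platform annotation, and they held 18 of the 896 features listed for a 2-colour array of cell wall genes that named 353 genes in all. The sensors were WSC2, WSC3 and WSC4, the GTPase was RHO1, and the kinases were PKC1, BCK1, MKK2, SLT2 and KDX1. Each gene had 2 features, on adjacent rows of the table. The series held 4 arrays of 1 group: untreated Saccharomyces cerevisiae BY4741. This haploid strain of mating type a carries deletions of HIS3, LEU2, MET17 and URA3. The yeast was kept in rich medium at 24 °C, diluted to an optical density of 0.2 and harvested after 6 h, and on every array 1 total RNA carried Cy3 in 1 channel and Cy5 in the other. Both channels therefore held the same RNA, and the values measure the assay and not a change in the cells. The 4 arrays held no stressed cells, and a ratio of an RNA against itself carries no expression level. The mating type could not be checked against its markers for this reason, although AGA2 and MFA1 of the a-specific genes had features.

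In this cascade, Wsc-family proteins span the plasma membrane and sense stress on the wall. They act through exchange factors on the GTPase Rho1, which activates protein kinase C, Pkc1. Pkc1 starts a MAP kinase module in which Bck1 phosphorylates the paired kinases Mkk1 and Mkk2, and these phosphorylate the MAP kinase Slt2. Slt2 acts on transcription factors, Rlm1 among them, and KDX1, which encodes a paralog of Slt2, is one of the transcripts known to rise under wall stress.

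Values are log2 ratios of the channels, centred on the median of each array. Higher and lower refer to that median, with the sign of the ratio left as in the table; the labels and the table do not say which dye is on top. The number of arrays limits the precision, and the labels name no separate cultures, so a p-value reflects only how these arrays differ, which may be technical. Across the whole series the array medians ran from -0.25 to -0.058 before centring, and 56 to 87 features had no value on an array. In limma's fit against 0, 24.9% of 345 tested genes passed an adjusted p of 0.05, with 10.7% higher and 14.2% lower, and the counts of cascade genes are to be read beside these shares. Without arrays 1, 2, 3 and 4 in turn, 0, 0, 1 and 0 genes of all those tested passed.

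All 72 values of the cascade features were present. Over all features with 1 gene, 158 of 2896 values, or 5.46%, were missing. The second thing counted was a log2 ratio equal to that of a pair of whole numbers up to 10, within 0.00005. Whether such ratios go with low signal was not tested, since channel intensities were not used. They made up 3 of the 72 cascade values, or 4.17%, and 7.2% of the values present over all features with 1 gene. WSC2 had 2 of them and PKC1 had 1, and the other 7 genes had none. Genes with a missing value or such a ratio were thus 2 of 9, against 39.4% of all tested genes. By tier, the sensors had 2 such ratios among 24 values, RHO1 had 0 among 8, and the kinases had 1 among 40.

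**Figure D1:**
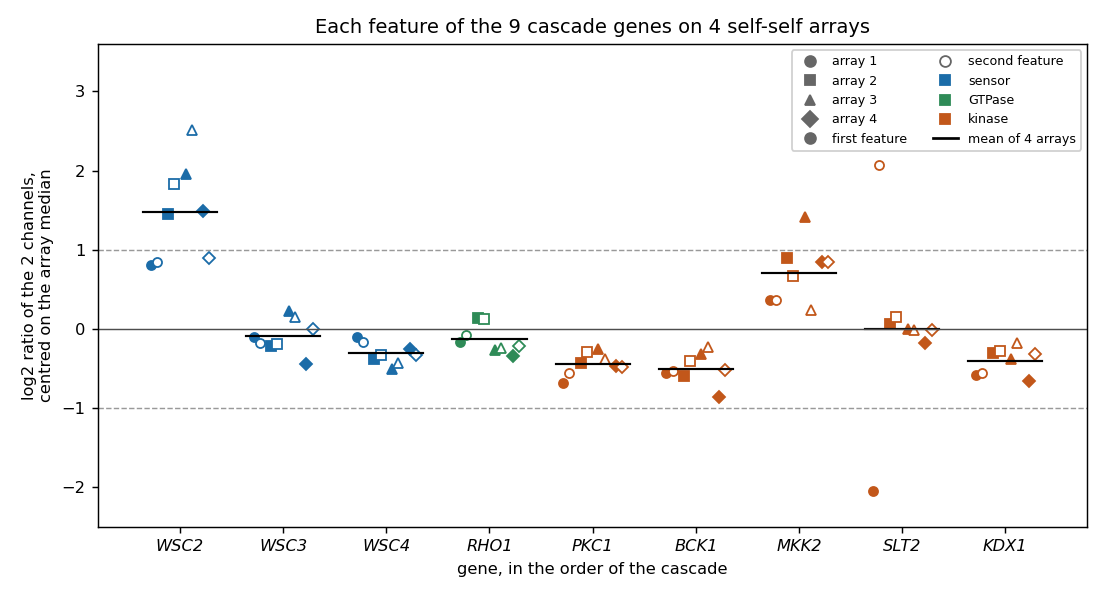
Log2 ratio of each feature of the 9 cascade genes on each of 4 arrays, centred on the array median (vertical axis, log2 units), by gene in the order of the cascade. Marker shapes are arrays, filled and open markers are the first and second feature of a gene, colours are tiers, black bars are means of 4 arrays, and dashed lines mark 2-fold. WSC2 and MKK2 lie above 0 at every point, WSC4, PKC1, BCK1 and KDX1 below it at every point, and the SLT2 features of array 1 stand at -2.05 and 2.08.

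Among the sensors, WSC2 lay far above the array median and its relatives did not. WSC2 (YNL283C), whose product senses wall stress beside other Wsc proteins, read 0.82, 1.64, 2.23 and 1.19 on arrays 1 to 4. It was lowest on array 1 and highest on array 3, and beyond 2-fold on arrays 2, 3 and 4. Its mean was 1.47 ± 0.608 (SD, n = 4), with a 95% interval of 0.78 to 2.17, and it passed limma's test at an adjusted p of 0.0347. The mean was a 2.78-fold departure from the array median between channels that held the same RNA, and without centring it was 1.29. The small whole-number ratios of WSC2 were 3 to 1 on array 2 and 5 to 1 on array 3, both in its second feature and before centring. Those 2 readings, 1.83 and 2.51 after centring, were 2 of the 3 highest of the 8. The first feature alone, without such a ratio, averaged 1.42 and passed at an adjusted p of 0.0365 when each feature was fitted apart with limma. The second averaged 1.52 and passed at 0.0452.

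WSC3 (YOL105C), the paralog of WSC2, read -0.14, -0.20, 0.19 and -0.22 on arrays 1 to 4. These values lay on both sides of 0, with a mean of -0.093 ± 0.191 (SD, n = 4), a 95% interval of -0.36 to 0.17 and an adjusted p of 0.528 in limma. WSC2 exceeded WSC3 on each array, by 0.96, 1.84, 2.05 and 1.41 log2 units, and the values of these paralogs did not overlap. The difference itself was not tested. Their features stood close together in the table, on rows 817 and 818 for WSC2 and 821 and 822 for WSC3; where the rows lie on the slide was not used here. WSC4 (YHL028W), a further gene of the family, read -0.13, -0.35, -0.47 and -0.29, below the median on every array. Its mean was -0.31 ± 0.139 (SD, n = 4) and did not pass in limma, at an adjusted p of 0.0597. It was lower at an adjusted p of 0.0326 without centring, a setting with 91 lower calls against 21 higher over all genes, and at 0.0394 with the features that had a missing value or a small whole-number ratio left out. It was also lower at 0.0498 in limma without duplicates differing by over 1. Both filters left the WSC4 values unchanged, with a mean of -0.31 and an SD of 0.139. Only the other genes in the fit changed, with 272 and 331 tested in place of 345. The second WSC4 feature fitted apart with limma passed at an adjusted p of 0.0498 while the first, at 0.0773, did not.

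RHO1 (YPR165W), the GTPase through which the sensors signal, was close to the median. It read -0.13, 0.13, -0.26 and -0.28 on arrays 1 to 4, with array 2 alone above 0. The mean was -0.13 ± 0.188 (SD, n = 4), the 95% interval ran from -0.39 to 0.13, and the adjusted p in limma was 0.374. Its features differed by 0.020 to 0.13 on an array, and by 0.066 on average, the smallest average difference among the 9 genes.

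The kinases showed 3 patterns: PKC1, BCK1 and KDX1 were lower on every array, MKK2 was higher on every array, and SLT2 averaged near 0. Lying on 1 side of the median on every array was common: 51.3% of all tested genes did so. The share was 57.9% over tested genes without a missing value or a small whole-number ratio, and 6 of the 9 cascade genes did so. PKC1 (YBL105C), the protein kinase C activated by Rho1, read -0.61, -0.36, -0.32 and -0.47 on arrays 1 to 4. Its mean was -0.44 ± 0.133 (SD, n = 4), a 1.36-fold departure, with an adjusted p of 0.0347 in limma. BCK1 (YJL095W), at the head of the MAP kinase module, read -0.55, -0.50, -0.27 and -0.69 on the same arrays. Its mean was -0.50 ± 0.174 (SD, n = 4) and passed at the same adjusted p of 0.0347 in limma. KDX1 (YKL161C) read -0.57, -0.29, -0.28 and -0.49, with a mean of -0.41 ± 0.145 (SD, n = 4) and an adjusted p of 0.0416 in limma. With each block of consecutive rows of the table centred by itself, KDX1 did not pass, at an adjusted p of 0.0552. All 24 feature values of these genes lay below 0, and none was beyond 2-fold.

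MKK2 (YPL140C), a kinase of Slt2, read 0.36, 0.78, 0.83 and 0.85 on arrays 1 to 4. Arrays 2 to 4 lay close together and array 1 lower. The mean was 0.70 ± 0.229 (SD, n = 4), with a 95% interval of 0.41 to 1.00 and an adjusted p of 0.0347 in limma. The average for array 3 joined unlike readings: its features stood at 1.42 and 0.24, a difference of 1.18 log2 units. On the other 3 arrays the difference averaged 0.078. Fitted apart with limma, the first feature passed at an adjusted p of 0.0429 and the second, with a mean of 0.53, did not, at 0.0513. MKK1, which encodes the paralogous kinase, had no value in either feature on arrays 2 and 3 and was not tested. On array 1 its features read 1.18 and 0.69, and on array 4 they read 2.35 and 1.69, all above the median. Cross-hybridisation between paralogs was not examined here, since probe sequences were not used, so readings of MKK1 and MKK2, of WSC2 and WSC3 or of SLT2 and KDX1 may not be separate measurements.

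SLT2 (YHR030C), the MAP kinase at the foot of the cascade, read 0.013, 0.10, -0.0047 and -0.096 on arrays 1 to 4. The mean of 0.0038 ± 0.0816 (SD, n = 4) did not pass in limma, at an adjusted p of 0.969. Its SD was the lowest of the 9 genes, and 8.41% of tested genes had a lower one. On array 1, however, the average came from features at -2.05 and 2.08, both beyond 2-fold on opposite sides. That difference of 4.13 log2 units was the seventh widest of 1271 duplicate pairs over all tested genes. Pairs with both features beyond 2-fold on opposite sides numbered 11 over all tested genes, each in a different gene. On arrays 2 to 4 the features of SLT2 differed by 0.082 on average, and the SD of the gene over these 3 arrays was 0.0996. Neither of the array 1 readings was a ratio of whole numbers up to 10. On array 1 the average near 0 was thus the midpoint of opposed readings, and on arrays 2 to 4 both features lay near 0.

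**Figure D2:**
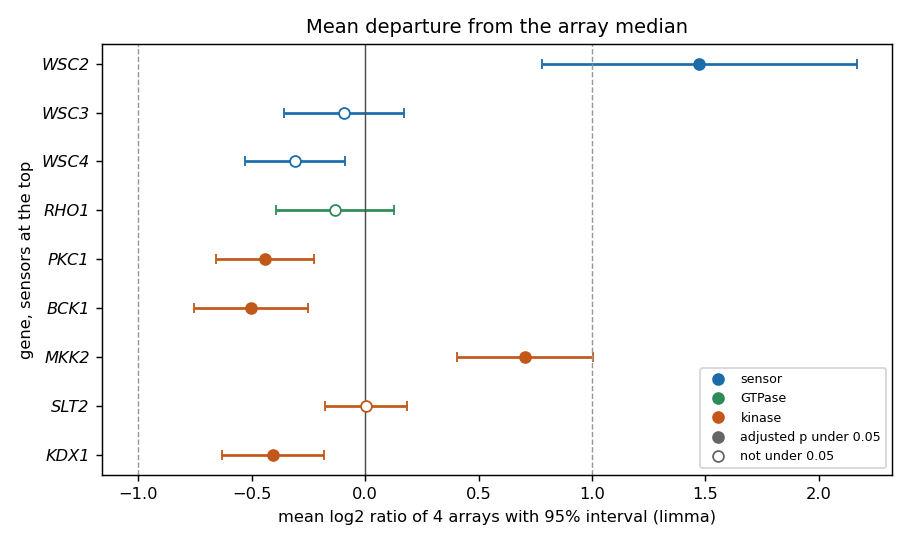
Mean log2 ratio over 4 arrays (horizontal axis) with its 95% interval from limma, by gene with sensors at the top. Filled points passed an adjusted p of 0.05 over all genes and dashed lines mark 2-fold. The interval of WSC2, 0.78 to 2.17, is the widest of the 9, and the intervals of WSC3, RHO1 and SLT2 include 0.

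Counted over the cascade, 2 of 9 genes were higher and 3 were lower, and the other 4 did not pass limma's test. The share called over all genes was 24.9%. The median of the 9 means was -0.13, and that of all tested genes was -0.043. On the values as deposited 2 of 9 were higher and 4 lower, beside 21 higher and 91 lower over all genes. When array 1, 2, 3 or 4 was left out, 0 of the 9 passed in limma at an adjusted p of 0.05. In the same limma fits 6, 5, 5 and 6 of the 9 had an unadjusted p under 0.05. Over all tested genes this held for 115 of 333, 119 of 335, 114 of 330 and 118 of 328. Directions in these fits stayed the same for 8 of the 9 cascade genes, and the mean of SLT2, near 0, was -0.029 without array 2.

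By the spread between arrays, the order from tightest to widest was SLT2 with an SD of 0.0816, PKC1 with 0.133, WSC4 with 0.139, KDX1 with 0.145, BCK1 with 0.174, RHO1 with 0.188, WSC3 with 0.191, MKK2 with 0.229 and WSC2 with 0.608. Neighbours in this order differ little, and an SD over 4 arrays is itself imprecise. In 8 of the 9 genes the SD lay under 0.236, the median over all tested genes, and WSC2 was the exception. Over tested genes without a missing value or a small whole-number ratio the median SD was 0.173. Only SLT2, PKC1, WSC4 and KDX1 of the cascade lay under that. The median SD was 0.191 for the sensors and 0.145 for the kinases, and the GTPase had 0.188. The kinases and the sensors overlapped in SD, and no difference between the tiers was tested.

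The difference between duplicate features gave another order. It averaged 0.066 for RHO1, 0.068 for WSC4, 0.10 for PKC1, 0.15 for KDX1, 0.15 for WSC3, 0.16 for BCK1, 0.35 for MKK2, 0.39 for WSC2 and 1.09 for SLT2. Only RHO1, WSC4 and PKC1 of the 9 were below 0.11, the median over all tested genes. Over tested genes without a missing value or a small whole-number ratio the median was 0.081, and only RHO1 and WSC4 were below it. A single array decided the value for SLT2, whose average was 0.082 without array 1, and for MKK2, whose average was 0.078 without array 3. WSC4 and PKC1 were among the 3 lowest genes in both orders, RHO1 was lowest in duplicate difference but not in SD, and SLT2 stood first in one order and last in the other. Over the 36 duplicate pairs of the cascade the median difference was 0.086 log2 units and 2 pairs, or 5.56%, differed by over 1. Over all tested genes the median was 0.087 and 4.8% of pairs differed by over 1.

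**Figure D3:**
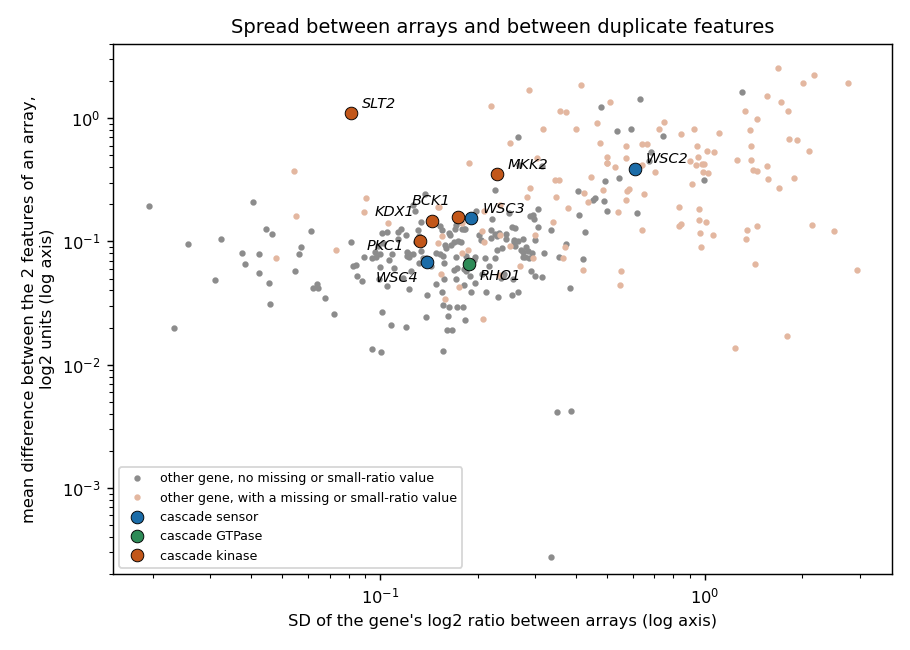
SD of the log2 ratio between arrays (horizontal, log axis) against the mean difference between duplicate features of an array (vertical, log2 units, log axis), for the 9 cascade genes and 332 others. Pale points are other genes that lack a value or have a small whole-number ratio on some array. SLT2 stands at an SD of 0.0816 and a duplicate difference of 1.09, and WSC2 lies right of the other 8 cascade genes.

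The precision of a 4-array mean can be read from the 95% intervals. They reached 1.13-fold to either side of the mean for SLT2, 1.16-fold for PKC1, 1.23-fold for MKK2 and 1.62-fold for WSC2, and the median over all tested genes was 1.24-fold. These intervals come from the averaged duplicates and leave out the difference between them, which matters most for SLT2. On single arrays the averaged ratio was beyond 2-fold for WSC2 on arrays 2, 3 and 4, and for no other gene of the cascade on any array. Of single feature values 8 of 72, or 11.1%, were beyond 2-fold, namely 5 of WSC2, 2 of SLT2 and 1 of MKK2. The share was 12.1% over all features with 1 gene, and 3.71% over tested genes without a missing value or a small whole-number ratio.

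The other genes of the pathway were taken from a list of 24 symbols, of which 14 had features and 13 were tested. The sensor gene WSC1 was sought under that symbol, which had no feature. The array names this gene SLG1, which was tested but is left out of the counts below. SLG1 averaged 0.10 ± 0.177 (SD, n = 4) and did not pass in limma, at an adjusted p of 0.479. The list covered further sensors, exchange factors, GTPase-activating proteins, phosphatases and transcription factors. In limma's fit 0 of the 13 were higher and 0 lower, and their median was -0.080. An unadjusted p under 0.05 in limma was found for 143 of all 345 tested genes and for 2 of the 13. The 2 were PTP3, a phosphatase gene, at -0.30 ± 0.128 and an adjusted p of 0.0593, and BEM2, a GTPase-activating protein gene, at -0.40 ± 0.298 and an adjusted p of 0.101 (SD, n = 4). PTP3 and BEM2 were lower on the values as deposited. PTP3 was also lower in the robust fit, with each block of consecutive rows centred, without features that had a missing value or a small whole-number ratio, and without duplicates differing by over 1. SKN7, a transcription factor gene, was lower once single whole-number ratios were left out. A missing value or such a ratio occurred in 7 of the 13, against 2 of the 9 cascade genes, and the median SD of the 13 was 0.298. With the cascade and these 13 genes together, 5 of 22, or 22.7%, were called, near the share over all genes. SLG1, which was not called, is not among the 22.

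For each called cascade gene, the genes with the closest readings over the 4 arrays were found by the root mean square difference from 326 other genes measured on every array. PKC1 and KDX1 were each other's nearest gene, at 0.0464 log2 units, followed by BCK2 for PKC1, at 0.0781, and MCM1 for KDX1, at 0.0636. BCK1 was nearest to BCK2, at 0.093, and ANS1, at 0.0945. MKK2 was nearest to ECM7, at 0.134, and AGA2, at 0.149, both above the median with means of 0.75 and 0.71. The nearest genes to WSC2 were SPR2 and BUD8, at 0.39 and 0.441, which is wider than for any of the other 4. With 4 arrays this likeness describes readings of the assay only.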

How the data were processed

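Each of 4 arrays compared 1 total RNA with itself, per the labels. The deposited table holds 1 value per feature and array, and that the authors' values are log2 ratios was read from the values themselves, many of which equal log2 of a ratio of whole numbers. The scanner, background correction, filter and normalization are not given in the sources used here, and channel intensities were not used.

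Features were named through the array's GEO annotation, and its Entrez identifiers were looked up among R64 genes. Of the features, 724 carried a single symbol, each found there unchanged, 10 carried more than 1 and 162 carried none. The median of each array was subtracted, duplicate features were averaged, and a gene measured on 3 or more arrays was tested against 0 with limma (lmFit on an intercept, eBayes, two-sided, Benjamini-Hochberg over 345 genes, threshold 0.05). Array numbers came from the labels. The named genes are all 9 cascade genes, the called or paralogous genes of a pathway list, and the 2 nearest genes of each called member; PTP3, BEM2 and SKN7 were named after their values were seen. The members, the lists and the alternatives were chosen with earlier results of these data known. The fit was tested on simulated normal values, drawn independently with the observed SD of each gene. The simulation held no dye bias, array effect or unlike duplicates, so it cannot show how the fit behaves under them. Alternatives covered centring, scaling, quantile normalization, arrays needed, features and duplicates left out, robust and weighted fits, thresholds and each array left out. R 4.3.3, limma 3.58.1, Python 3.11.15, pandas 2.3.3 and matplotlib 3.10.9 were used.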

Additional observations from a re-analysis of the deposited data

Results flagged for a closer look

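In 3 places 1 array stood apart from the other 3 by a Dixon test on 4 values, which 5% of such groups would do by chance. Of the 9 gene averages, 1 did so: MKK2 on array 1, at 0.363, below 0.78 to 0.85 on arrays 2 to 4. The array 3 average of MKK2 joined features at 1.42 and 0.24, whereas those on array 1 were alike, at 0.37 and 0.36. Neither feature of MKK2 was flagged by itself. Of the 18 features, 2 had 1 array apart, both of SLT2 on array 1, at -2.05 and 2.08. Over the 327 genes measured on all arrays, 7.34% had such an array.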

How the results depend on the processing

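No paired analysis was possible because the series has 1 group. Of all tested genes 86 passed, and 0 to 1 did with 1 array left out; of the 9 cascade genes 5 passed, and 0 did with 1 array left out, where fewer degrees of freedom were left. In these fits adjusted p-values were 0.0661 to 0.0965 for WSC2, 0.0857 to 0.103 for PKC1, 0.0808 to 0.0968 for BCK1, 0.0653 to 0.0965 for MKK2 and 0.0865 to 0.119 for KDX1. At a threshold of 0.01, 0 of all genes and 0 of the cascade passed. With each feature fitted apart, both features passed for 54 genes and for 3 of the cascade, WSC2, PKC1 and BCK1. The mean of SLT2 turned to -0.18 as deposited and to -0.54 for its first feature alone, and ran from -0.029 to 0.037 with 1 array left out. As deposited, 18.8% of calls over all genes were higher, against 43% after centring. Whole numbers up to 20 gave 6 matching cascade values in place of 3, or 8.33%, beside 12.1% of the values present over all features with 1 gene. WSC2 held 4 of the 6. Over 11 other settings of centring, scaling, filters and fitting, WSC2, PKC1, BCK1 and MKK2 passed in each. Their highest adjusted p-values in limma were 0.0408, 0.0433, 0.0376 and 0.0454. KDX1 passed in all but the centring by blocks. The settings use the same arrays, and the filters often left the values of a gene unchanged. BCK1 kept a mean of -0.50 and an SD of 0.174 under every filter, so passing there is not separate evidence. WSC4 passed in 3 of the 11: as deposited, without features with a missing value or small whole-number ratio, and without duplicates differing by over 1. In each of these 6 of the 9 cascade genes were called. The filters for features and duplicates left the values of WSC4 unchanged. Signal over background was not used, so what it limits is unknown.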
